A study of Mus musculus with 15 samples.

Results

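Placental growth factor (Pgf), Vegfa, Vegfb and Vegfc are genes for secreted ligands of the vascular endothelial growth factor (VEGF) family. They were taken by symbol from a table of 45706 genes, in which each of the 4 had 1 row, and all 4 passed the filter on low counts. The question was how transcripts of the family's own ligands stood in lymphatic endothelial cells that had been given VEGF-C. The cells were sorted as Pdpn+ CD31+ CD45- from lymph nodes of 5 sites (cervical, axillary, brachial, inguinal, popliteal) that were pooled from female C57Bl/6 mice, whose age the labels do not give. All groups were grown in MEMα with 10% fetal bovine serum, penicillin and streptomycin, and serum itself can carry growth factors that were not measured here. The unstimulated group received no VEGF-C, the second group 10 ng/mL and the third 100 ng/mL of recombinant murine VEGF-C made in HEK-293E cells, for 72 h. Each group had 5 libraries, lettered A to E, of polyadenylated RNA, so transcripts were measured and not secreted protein.

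VEGF ligands are dimeric proteins that act on receptor tyrosine kinases of endothelial cells. Vegfa binds Flt1 and Kdr and is the main driver of blood vessel growth, while Pgf and Vegfb bind Flt1 and not Kdr. Vegfc and the remaining ligand Vegfd are ligands of Flt4 that undergo proteolytic processing, and Vegfc is required for the sprouting of lymphatic vessels in the embryo. The neuropilins Nrp1 and Nrp2 serve as co-receptors.

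Libraries held 27784906 to 38590841 estimated counts. Of the 17650 genes tested for 100 ng/mL against unstimulated, 7571 were called at an adjusted p under 0.05 (edgeR quasi-likelihood test, Benjamini-Hochberg adjustment). For 10 ng/mL against unstimulated, edgeR called 0 genes, with 844 at an unadjusted p under 0.05, and DESeq2 called 8. Of 9 lymphatic endothelial markers, Prox1, Pdpn, Lyve1, Flt4, Pecam1, Cdh5 and Reln passed the filter, while Ccl21a, a chemokine of lymphatic endothelium, was at 0 in all 10 libraries of the lower doses and Mmrn1 was near 0 in every group. Markers of fibroblastic and mural cells were present throughout, with a summed 3209.5 to 4633.8 CPM in unstimulated, 2689.6 to 4402.8 in 10 ng/mL and 944.0 to 1383.3 in 100 ng/mL libraries (CPM, abundance per library after scaling for depth and composition). Of the fibroblastic sums at 100 ng/mL Thy1 gave 737.9 ± 65.57 CPM, and it changed by -0.53 ± 0.09 (log2, SE). Summed over 8 blood endothelial markers, libraries without VEGF-C held 4421.0 to 5631.9 CPM. The range was 4206.9 to 5183.3 at the lower dose and 3938.3 to 4616.6 at the higher. Of these 8, 3 rose and 4 fell at 100 ng/mL, where 21.4% of all genes were higher and 21.5% lower. Emcn and Plvap led them, at 2063.7 ± 304.1 and 1380.6 ± 233.6 CPM without VEGF-C. Whether they came from blood vessel cells was not tested. Within the 100 ng/mL group, library B lay away from the other 4, with the lowest lymphatic and the highest fibroblastic marker sum of the 5. Of 12 genes of RNA quality and handling (mitochondrial and heat shock transcripts), 8 rose and 1 fell at 100 ng/mL. Among all genes 21.4% were higher and 21.5% lower. The median log2 fold change of the 12 was 0.47. At 10 ng/mL 0 of the 12 were called and the median was 0.40, and their summed level was 8314.0 to 11775.3 CPM in unstimulated, 11931.1 to 15273.0 in 10 ng/mL and 11351.2 to 15655.2 in 100 ng/mL libraries, so the sums of the lower dose already lay above the unstimulated ones. Their part in the results was not tested. Across all genes, each unstimulated library deviated from its group mean most like a different 10 ng/mL library under another letter, with correlations of 0.59 to 0.86. The labels give no such pairing, so the model treats the libraries as separate, and its intervals for 10 ng/mL include this shared spread. Means of CPM and RPKM carry ± SD (n = 5) and log2 fold changes carry ± SE. Whether the 5 libraries of a group were grown as separate cultures is not in the labels, and p-values therefore reflect only how much these libraries vary, which may be technical.

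The 4 genes lie on different chromosomes and none overlaps another annotated gene (GRCm38, GENCODE M21). Pgf (ENSMUSG00000004791) spans chr12:85166635-85177790 on the minus strand. Vegfa (ENSMUSG00000023951) spans chr17:46016993-46032369 and Vegfb (ENSMUSG00000024962) spans chr19:6982473-6987651, also on the minus strand. Vegfc (ENSMUSG00000031520) spans chr8:54077606-54187096 on the plus strand. All are protein-coding. Their upstream windows are shown because transcripts of these 4 genes went different ways at 100 ng/mL. Each window is the 250 bases before the outermost RefSeq start, from the RefSeq table for GRCm38.p6, printed 5′ to 3′ on the gene's strand. For Pgf only the 30 bases from 50 to 21 before the start are printed, since its window lies in an annotated 5′ UTR of a longer Pgf transcript. Capitals mark the GC box GGGCGG on either strand, the binding sequence of Sp-family factors, a choice of motif made after the matches were seen. The printed bases are chr12:85177334-85177363 for Pgf, chr17:46032378-46032627 for Vegfa, chr8:54077282-54077531 for Vegfc and chr19:6987652-6987901 for Vegfb. Matches and base shares given below for Pgf are those of its whole window of 250 bases.
Pgf: GGGCGGgcaggctgcagccCCGCCCcatac
Vegfa: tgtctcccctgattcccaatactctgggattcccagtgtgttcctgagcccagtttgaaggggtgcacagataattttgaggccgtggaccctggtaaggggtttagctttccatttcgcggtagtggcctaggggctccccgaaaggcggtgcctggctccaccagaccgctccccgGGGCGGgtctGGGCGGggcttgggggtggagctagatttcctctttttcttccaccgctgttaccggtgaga
Vegfc: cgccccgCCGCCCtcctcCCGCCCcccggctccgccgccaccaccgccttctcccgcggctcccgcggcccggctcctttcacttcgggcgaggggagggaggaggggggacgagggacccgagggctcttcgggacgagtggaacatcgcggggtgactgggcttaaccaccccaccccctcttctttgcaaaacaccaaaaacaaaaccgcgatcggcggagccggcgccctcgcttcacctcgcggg
Vegfb: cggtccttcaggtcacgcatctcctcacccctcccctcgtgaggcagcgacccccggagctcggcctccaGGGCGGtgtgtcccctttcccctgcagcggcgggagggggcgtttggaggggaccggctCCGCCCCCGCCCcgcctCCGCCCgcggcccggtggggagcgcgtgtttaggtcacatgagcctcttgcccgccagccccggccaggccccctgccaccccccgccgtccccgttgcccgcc

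The windows of Pgf, Vegfa and Vegfc hold 2 GC boxes each and that of Vegfb holds 4, with no overlap between them, and 32.7% of all 32851 RefSeq windows of this length hold at least 1. G and C made up 68.4% of the Pgf window, 59.2% of the Vegfa, 71.6% of the Vegfc and 76.4% of the Vegfb window, against a median of 52.4% over all windows. The core of the hypoxia response element, ACGTG or GCGTG on either strand, was found once in the Pgf window (124 bases before the start) and in 2 places in that of Vegfb, in a search where 38.6% of all windows held 1 or more. The core of the metal response element, TGCACNC or TGCGCNC on either strand, was found once, in the Vegfa window, and in 21.4% of all windows. Windows at a further internal RefSeq start held none of the 3 motifs for Pgf, and 2 hypoxia cores and 1 GC box for Vegfa. These are matches of letters and do not show binding, and bases outside these windows were not searched.

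At 100 ng/mL, Pgf was the ligand gene that rose, Vegfa and Vegfc fell, and Vegfb did not pass the test. Thus 1 of the 4 was called higher and 2 were called lower, where 42.9% of all genes were called, 21.4% higher and 21.5% lower. Groups did not overlap for Pgf and Vegfc, while 27.2% of all genes had groups that did not overlap. The median log2 fold change was -0.52 over the 4 genes and 0.008 over all genes tested. Compared with 10 ng/mL, again 1 was called higher and 2 were called lower, where 40.5% of all genes were called, 19.9% higher and 20.6% lower, and 25.6% had groups that did not overlap. Both comparisons use the same 100 ng/mL libraries. At 10 ng/mL 0 of the 4 were called, as were 0% of all genes, and the groups overlapped for all 4, as they did for all but 1.31% of genes.

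**Figure D1:**
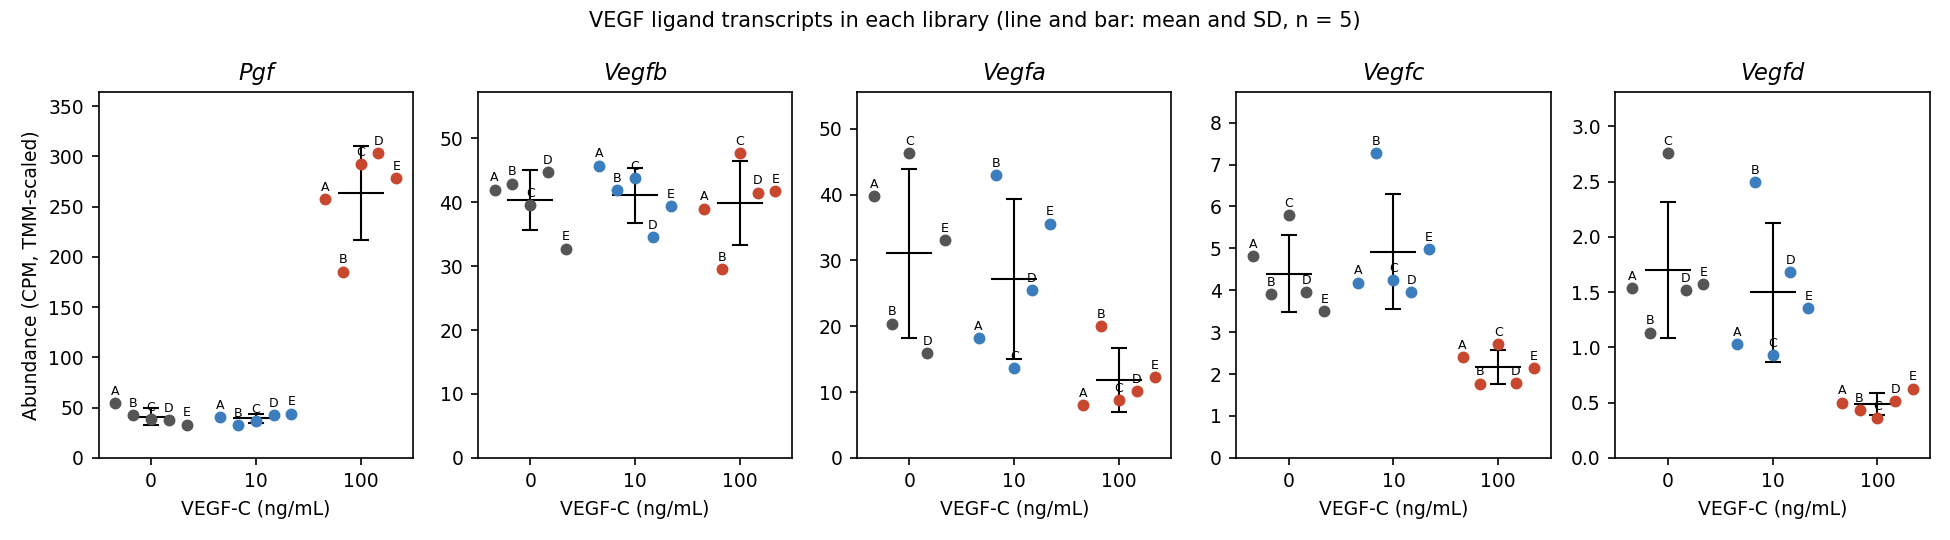
Abundance (CPM) of each ligand transcript against the dose of VEGF-C (ng/mL), with 1 point per library lettered A to E and the mean and SD of 5 libraries. Pgf lies between 185 and 303 CPM in the 100 ng/mL libraries and between 32.3 and 54.3 CPM in the other 10, while Vegfb lies between 29.5 and 47.7 CPM over all 15 libraries and Vegfa spreads widely within each group.

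Pgf, a ligand of Flt1 first found in placenta, had the largest change of the 4. Unstimulated libraries A to E held 54.3, 42.2, 38.2, 37.5 and 32.9 CPM. The 10 ng/mL libraries held 40.4, 32.3, 36.8, 42.2 and 44.1 CPM. With 100 ng/mL, libraries A to E held 257.5, 185, 292, 303 and 278 CPM. Every 100 ng/mL library was thus above every other library, and library B was the lowest of its group. The log2 fold change from unstimulated was 2.68 ± 0.15 (SE, adjusted p = 1.59e-08), a rise of 6.41-fold with a 95% interval of 5.12- to 8.04-fold. It ranked 126 from the top among the 17650 genes tested. Against 10 ng/mL the log2 fold change was 2.75 ± 0.15 (SE, adjusted p = 1.75e-08). Between 10 ng/mL and unstimulated it was -0.07, with a fold interval of 0.769 to 1.18 (adjusted p = 0.977), so a change in that range could not be told from none at this spread. Without 100 ng/mL library B the log2 rise over unstimulated was 2.78 (adjusted p = 1.84e-09).

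Vegfa, the ligand of Kdr and Flt1, fell at 100 ng/mL but varied most within groups. Unstimulated libraries A to E held 39.75, 20.4, 46.3, 15.9 and 33.1 CPM. The 10 ng/mL libraries held 18.2, 42.9, 13.6, 25.5 and 35.6 CPM. The 100 ng/mL libraries held 8.035, 20, 8.78, 10.15 and 12.3 CPM. Library B was the highest at 100 ng/mL and lay above unstimulated D, and above A and C of the 10 ng/mL group, so the groups overlapped. The coefficient of variation within a group was 40.8 to 44.6%, against 10.6 to 16.6% for Vegfb. The log2 fold change from unstimulated was -1.39 ± 0.36 (SE, adjusted p = 0.00603), 2.62-fold lower, with a 95% interval of -2.16 to -0.62. Against 10 ng/mL it was -1.19 ± 0.36 (SE, adjusted p = 0.0159), and without 10 ng/mL library B it was -0.97, which did not pass (adjusted p = 0.0502). Without 100 ng/mL library B the change from unstimulated was -1.67 (adjusted p = 0.00205). Between 10 ng/mL and unstimulated Vegfa had a log2 fold change of -0.20, with a wide fold interval of 0.519 to 1.47 (adjusted p = 0.975), which rests on the spread between libraries. With surrogate variables in the model, added after seeing the data, it was -0.01 (adjusted p = 0.992).

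Vegfa varied between the libraries of a group together with a gene of fibroblastic cells. Pdgfra, a receptor of fibroblastic cells picked after its values were seen, held 21.1, 11.3, 31.1, 6.80 and 18.1 CPM in unstimulated libraries A to E. In the 10 ng/mL libraries it held 11.3, 28.6, 6.23, 14.6 and 19.0 CPM, and in the 100 ng/mL libraries 2.55, 5.84, 4.13, 2.85 and 3.985 CPM. Within unstimulated and within 10 ng/mL libraries, Pdgfra and Vegfa gave the same order of the 5 libraries. At 100 ng/mL library B was highest and A lowest in both, but C, D and E were ordered differently. Of 15 fibroblastic and mural markers, 14 were tested and 13 fell at 100 ng/mL, where 21.5% of all genes were lower. The median log2 fold change of these markers was -2.22. The 3 of them with the smallest p were Dcn, a matrix proteoglycan, at -4.62 ± 0.42, and the contractile genes Acta2 at -4.00 ± 0.44 and Tagln at -4.17 ± 0.47 (SE). Of the 9 leukocyte markers tested 7 fell, against the same 21.5% of all genes. The leukocyte sums were 46.3 to 142.9 CPM in unstimulated, 39.3 to 116.6 in 10 ng/mL and 21.7 to 37.6 in 100 ng/mL libraries. Of the 7 lymphatic markers tested 5 rose, where 21.4% of all genes were higher. Prox1 and Pdpn were not called (adjusted p = 0.0589 and 0.453). The lymphatic sums were 4429.3 to 5123.9, 4988.6 to 5313.1 and 6580.1 to 9188.3 CPM in order of dose. A large part of them came from the general endothelial genes Pecam1 and Cdh5, at 1587.5 ± 101.3 and 2161.8 ± 87.65 CPM in unstimulated libraries. Fewer cells of a type and less RNA per cell cannot be told apart in such samples, and the part of these markers in the fall of Vegfa was not tested.

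**Figure D2:**
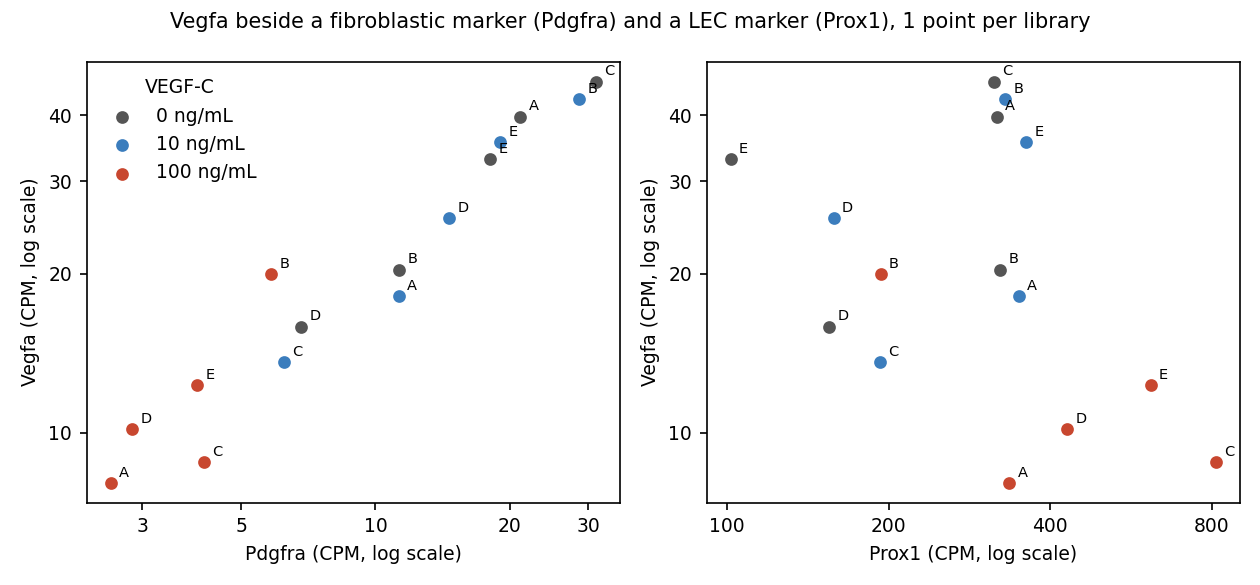
Vegfa (CPM, log axis) against the fibroblastic marker Pdgfra (left) and the lymphatic marker Prox1 (right, CPM, log axes), with 1 lettered point per library coloured by dose. Vegfa and Pdgfra, which was picked after its values were seen, order the unstimulated and the 10 ng/mL libraries alike. Libraries of similar Prox1 can differ in Vegfa or be alike. Unstimulated B and C, at 323 and 314 CPM of Prox1, hold 20.4 and 46.3 CPM of Vegfa. Unstimulated A, at 318.5 CPM of Prox1, holds 39.75 CPM of Vegfa, nearer to C than to B. Neither marker was tested against Vegfa.

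Vegfc, the ligand of Flt4 and the same factor that had been added as protein, had a transcript of low level that fell at 100 ng/mL. Unstimulated libraries A to E held 4.81, 3.91, 5.80, 3.96 and 3.5 CPM. The 10 ng/mL libraries held 4.18, 7.28, 4.24, 3.95 and 4.98 CPM. At 100 ng/mL the 5 held 2.40, 1.77, 2.72, 1.79 and 2.135 CPM. All 5 were below every library of the other groups, among which 10 ng/mL library B was highest. The log2 fold change was -1.02 ± 0.19 (SE, adjusted p = 0.000612) from unstimulated, with a fold interval of 0.371 to 0.657. It was -1.18 ± 0.19 (SE, adjusted p = 0.000193) from 10 ng/mL. Between 10 ng/mL and unstimulated it was 0.16, with a fold interval of 0.853 to 1.47 (adjusted p = 0.969). These values rest on 49.4 to 82.8 estimated counts per library at 100 ng/mL, so counting error alone reached 14.2% of the lowest value. Without 100 ng/mL library B the fall from unstimulated was -0.96 on the log2 scale (adjusted p = 0.00185).

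Vegfb, a ligand of Flt1 with roles in heart and fat tissue, did not pass the test in any comparison. Unstimulated libraries A to E held 42.0, 42.9, 39.6, 44.8 and 32.7 CPM. The 10 ng/mL libraries held 45.7, 41.9, 43.8, 34.5 and 39.4 CPM. At 100 ng/mL they held 39.0, 29.5, 47.7, 41.5 and 41.75 CPM. The 3 groups covered nearly the same range, with library B lowest at 100 ng/mL. The log2 fold change from unstimulated was -0.02 ± 0.12 (SE, adjusted p = 0.92) at 100 ng/mL, with a fold interval of 0.831 to 1.17. At 10 ng/mL it was 0.02 with a fold interval of 0.856 to 1.21 (adjusted p = 0.987). Between the doses the fold interval was 0.817 to 1.15 (adjusted p = 0.809).

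Vegfd, the remaining ligand of Flt4 in the mouse, is listed in the table under its older symbol Figf. Unstimulated libraries A to E held 1.53, 1.13, 2.76, 1.515 and 1.57 CPM. The 10 ng/mL libraries held 1.03, 2.497, 0.9275, 1.68 and 1.35 CPM. At 100 ng/mL the values were 0.498, 0.434, 0.360, 0.511 and 0.626 CPM. All 5 of these were below the rest. The log2 fold change from unstimulated was -1.79 ± 0.31 (SE, adjusted p = 0.000258), on only 10.9 to 21.8 estimated counts per library at 100 ng/mL. Between 10 ng/mL and unstimulated it was -0.19 (adjusted p = 0.97).

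**Figure D3:**
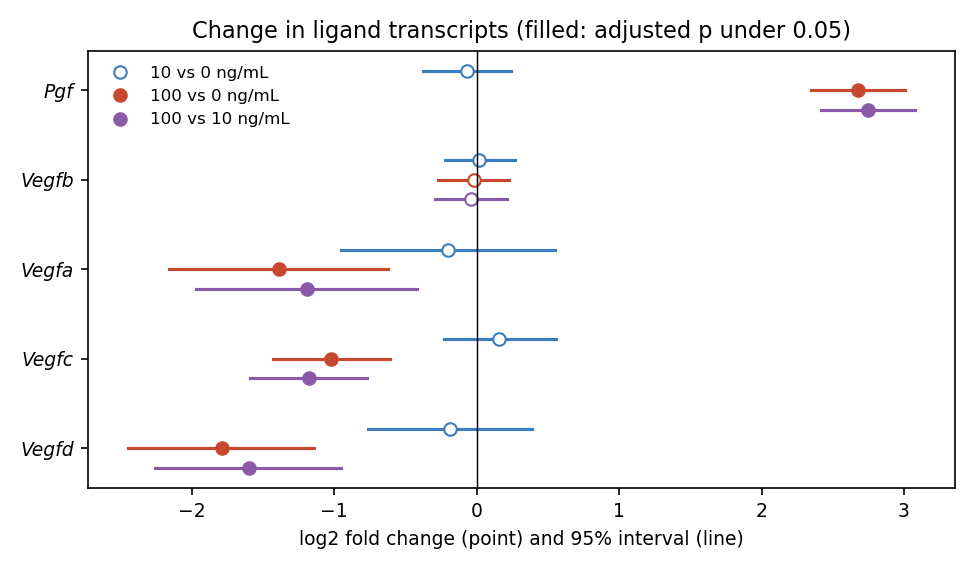
Log2 fold change (point) and 95% interval (line) of each ligand in the 3 dose comparisons, with filled points where the adjusted p was under 0.05. Pgf lies at 2.68 and 2.75 in the comparisons that hold the 100 ng/mL libraries, Vegfa, Vegfc and Vegfd lie below 0 there, and every interval for 10 ng/mL against unstimulated spans 0.

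Levels of different ligands were compared in the authors' RPKM, which divides by gene length. Unstimulated cells held Pgf at 13.9 ± 2.84 RPKM and Vegfb at 13.5 ± 1.4 RPKM (SD, n = 5). These neighbours overlapped, with Vegfb above Pgf in 3 libraries and below it in 2. Vegfa followed at 3.91 ± 1.625, then Vegfc at 1.25 ± 0.257 and Vegfd at 0.382 ± 0.137 RPKM, and no neighbours from Vegfb down overlapped. At 10 ng/mL Pgf stood at 12.97 ± 1.53 and Vegfb at 13.4 ± 1.40 RPKM, again with Vegfb above Pgf in 3 libraries and below it in 2. Vegfa at 3.33 ± 1.49 and Vegfc at 1.38 ± 0.387 RPKM overlapped between libraries at that dose, although Vegfa was the higher in each single library. At 100 ng/mL the order was Pgf, Vegfb, Vegfa, Vegfc and Vegfd in all 5 libraries. Pgf stood at 87.0 ± 15.5 RPKM there, Vegfb at 12.99 ± 2.15, Vegfa at 1.45 ± 0.594, Vegfc at 0.602 ± 0.110 and Vegfd at 0.105 ± 0.0213 RPKM.

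The make-up of the ligand pool moved accordingly. Pgf made up 42.0% ± 3.55 of the summed ligand RPKM in unstimulated, 41.4% ± 5.05 in 10 ng/mL and 85.0% ± 1.40 in 100 ng/mL cells (SD, n = 5). The sum itself was 33.0 ± 4.35, 31.4 ± 1.62 and 102 ± 17.04 RPKM. The ratio of Pgf to Vegfa within a library was 4.125 ± 1.81 in unstimulated and 68.9 ± 26.9 in 100 ng/mL cells, where library B gave 25.1 and the highest library 90.3. The ratio of Pgf to Vegfb was 1.03 ± 0.170 and 6.69 ± 0.465,, which did not overlap. The ratio of Vegfa to Vegfc, which both fell, overlapped in all 3 groups, at 3.07 ± 0.995, 2.37 ± 0.705 and 2.57 ± 1.44.

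**Figure D4:**
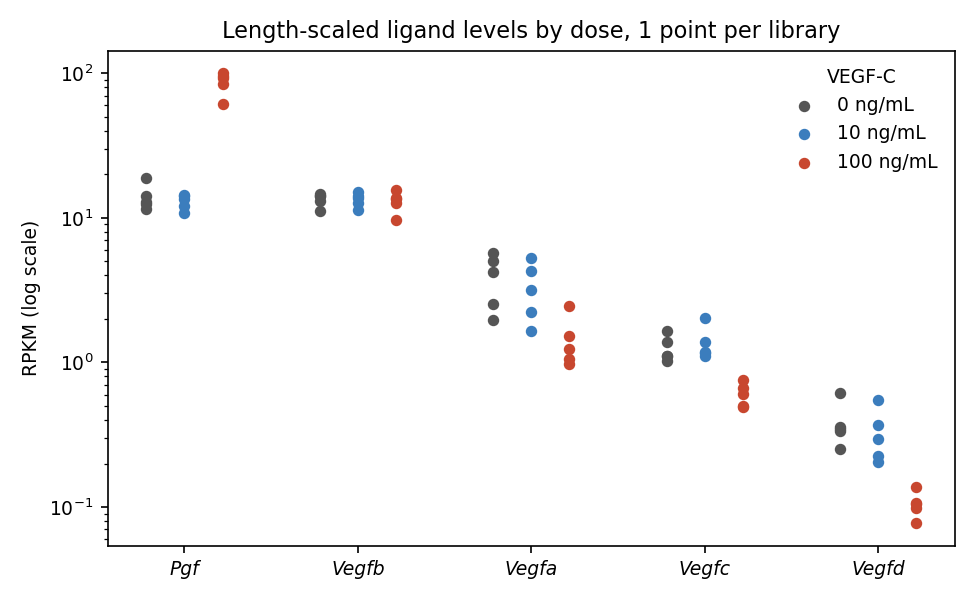
RPKM (log axis) of the 5 VEGF ligands, with 1 point per library coloured by dose of VEGF-C. Pgf and Vegfb share a level near 13 RPKM at the lower doses, and at 100 ng/mL Pgf stands at 61.2 to 99.9 RPKM, above all other ligands.

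The receptors were read beside the ligands. Of 5 receptors and co-receptors, Kdr, Flt4 and Nrp2 rose at 100 ng/mL and 0 fell, with a median log2 fold change of 0.85, where 21.4% of all genes were higher. Flt1, the receptor of Pgf, Vegfb and Vegfa, stood at 231 ± 42.2 CPM without VEGF-C and at 186 ± 36.4 CPM with 100 ng/mL (SD, n = 5), a log2 fold change of -0.31 ± 0.16 that did not pass (SE, adjusted p = 0.123). Nrp1 stood at 118 ± 26.4 and 73.2 ± 38.01 CPM and did not pass either (-0.69 ± 0.30, adjusted p = 0.0786). Its 100 ng/mL libraries A and B, at 98.5 and 126.7 CPM, lay within the unstimulated range, and C, D and E, at 35.3, 54.2 and 51.2 CPM, lay below it. At 10 ng/mL 0 of the 5 were called.

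The platelet-derived growth factors (PDGF), which share the cystine-knot fold of the VEGF ligands and act on mural and fibroblastic cells, all fell at 100 ng/mL (4 of 4, median log2 fold change -2.15, where 21.5% of all genes were lower). Pdgfc fell from 23.9 ± 6.32 to 2.66 ± 0.769 CPM, a log2 change of -3.16 ± 0.24 (SE, adjusted p = 1.31e-07). Pdgfb, the ligand by which endothelium recruits pericytes, fell from 371 ± 88.7 to 75.7 ± 19.7 CPM (-2.29 ± 0.23, adjusted p = 1.89e-06). Pdgfa changed by -2.01 ± 0.23 on the log2 scale (SE, adjusted p = 6.9e-06).

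Enzymes and cofactors that process or release VEGF ligands went in both directions, with 5 of 14 higher, 8 lower and 1 not called, and a median of -0.96, where 21.4% of all genes were higher and 21.5% lower. The plasminogen activators Plau and Plat rose, by 1.86 ± 0.17 and 1.78 ± 0.26 on the log2 scale (adjusted p = 7.06e-07 and 7.05e-05). Adamts14, a procollagen protease that can also cleave Vegfc, fell from 12.9 ± 3.25 to 2.85 ± 1.63 CPM (-2.18 ± 0.30, adjusted p = 3.57e-05). The member not called was Ccbe1, the cofactor of Vegfc cleavage, at 1.745 ± 1.43 and 0.665 ± 0.786 CPM (-1.41 ± 0.63, adjusted p = 0.0867).

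Among 10 genes of the oxygen- and metal-sensing machinery that acts on Vegfa or Pgf, 9 were tested, 1 was higher, 3 were lower and 5 were not called (median -0.13). These 4 calls of 9 stand near the 42.9% of all genes called, and nothing is read from the count. Epas1, a hypoxia-inducible factor abundant in endothelium, fell from 250 ± 12.6 to 93.4 ± 22.1 CPM (-1.42 ± 0.13, adjusted p = 6.58e-07). The prolyl hydroxylases Egln3 and Egln1, which mark these factors for decay, changed by 0.59 ± 0.10 and -0.33 ± 0.06 (adjusted p = 0.000243 and 0.000374). Of 12 other hypoxia-response genes 2 were higher, 4 lower and 6 not called (median -0.04), again near the share of all genes called. Hilpda, a lipid droplet protein, rose by 1.23 ± 0.11 on the log2 scale. The glucose transporter Slc2a1 changed by -1.01 ± 0.11 and the collagen prolyl hydroxylase P4ha1 by -1.02 ± 0.13 (SE).

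Of 5 genes for proteins that bind AU-rich elements or the Vegfa transcript, 1 was higher, 1 lower and 3 were not called (median 0.05), also near that share. Zfp36, which promotes decay of AU-rich transcripts, fell from 43.3 ± 10.7 to 18.1 ± 1.89 CPM (-1.26 ± 0.16, adjusted p = 1.71e-05). Its relative Zfp36l2 rose by 0.48 ± 0.10 (SE, adjusted p = 0.000915). In every list around the ligands 0 genes were called at 10 ng/mL against unstimulated.

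**Figure D5:**
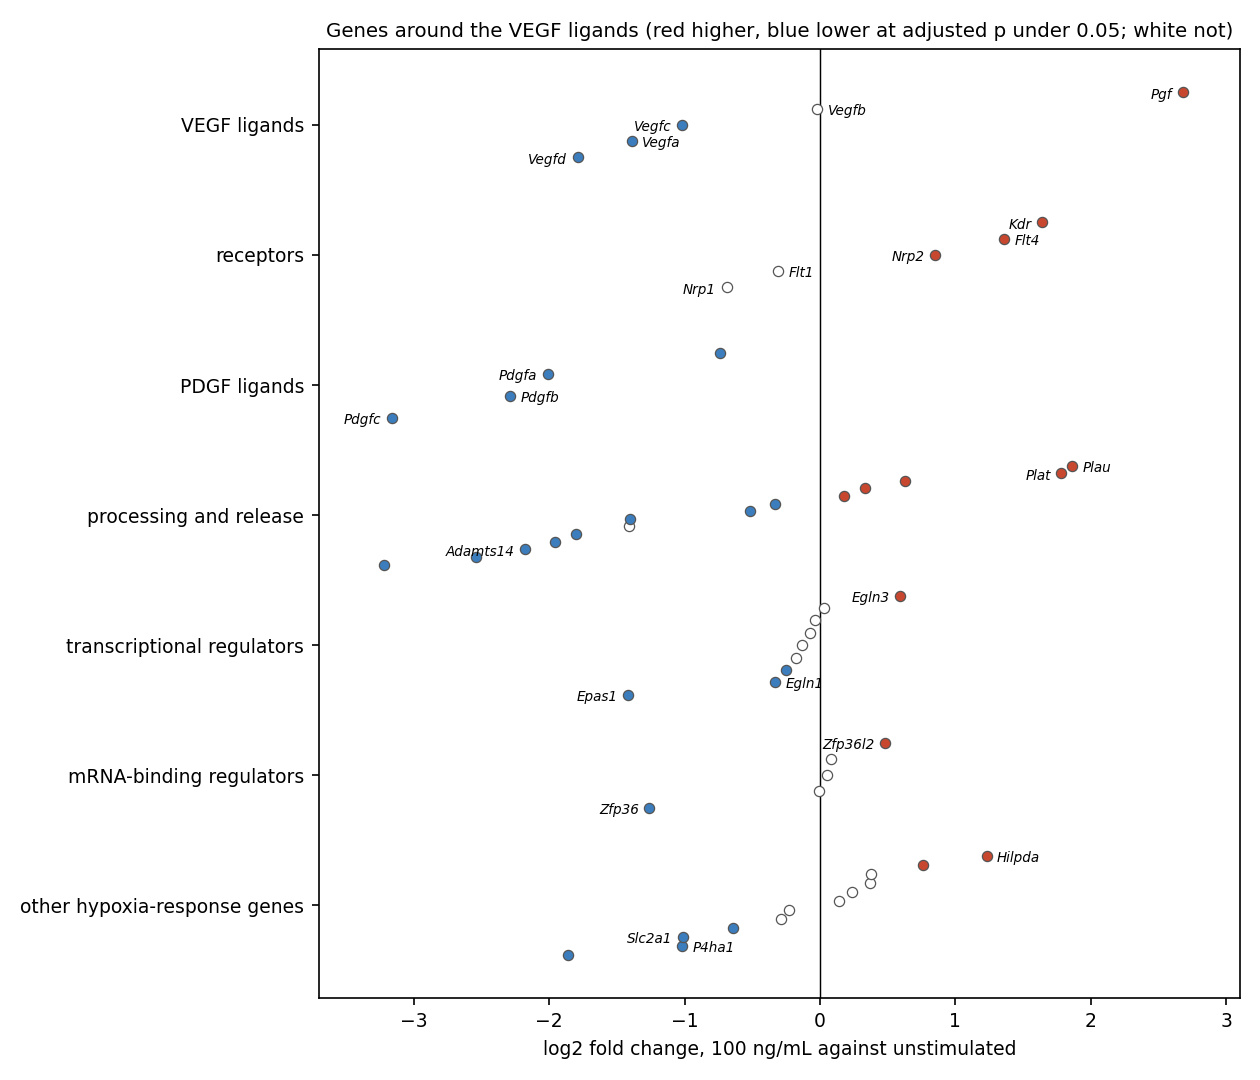
Log2 fold change of 100 ng/mL against unstimulated for the VEGF ligands and 6 lists of related genes, with 1 point per tested gene. Points are red where higher, blue where lower and white where the adjusted p was not under 0.05. Genes of these lists named in the text are labelled, except Ccbe1. The 4 PDGF ligands lie below 0, from -3.16 to -0.74, the called receptors lie above 0, and the other lists lie on both sides.

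For each ligand the 3 genes with the closest profile were found among 11042 genes, by the root mean square difference between log2 CPM profiles standardised over the 15 libraries (in SD units; the median gene lay at 1.39 to 1.46). Closest to Pgf were Eif2b2 at 0.09, Snx9 at 0.13 and Mapk11 at 0.14. Eif2b2, a subunit of a translation initiation exchange factor, stood at 91.0 ± 7.92, 89.7 ± 5.475 and 267 ± 36.8 CPM in order of dose, so the likeness lies in the pattern and not in the size of the change. Closest to Vegfa were Loxl1, an enzyme that crosslinks elastin, at 0.15, the mesenchymal transcription factor Tbx15 at 0.16 and the cytoskeletal adaptor Tln2 at 0.18. Loxl1 stood at 26.4 ± 11.3, 22.3 ± 9.61 and 8.50 ± 3.02 CPM, with library B again the highest of the 100 ng/mL group. Closest to Vegfc were Trf, the gene of transferrin, at 0.29, Sipa1l1 at 0.33 and Mkl2 at 0.33, and closest to Vegfb were Tpra1 at 0.27, Slc39a4 at 0.30 and Fbxo21 at 0.30. The points share libraries and depth, and these likenesses are descriptions with no test.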

How the data were processed

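RNA was measured by poly-A selected, stranded sequencing in 15 libraries, grouped by dose from the sample titles. The authors deposited estimated counts and RPKM values for 45706 genes, per the file headers, and 64.3% of the estimated counts were fractional. The RPKM values deposited by the authors use a library total 1.86 to 1.92 times the sum of the counts. Bowtie2, FastQC, limma and the builds mm10 and GRCm38 are listed in the submitters' processing notes, without versions. How reads were counted (tool, annotation release, strand, reads with several matches) was not given in the sources used here.

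Estimated counts were rounded, genes kept by filterByExpr, libraries scaled by TMM, and 1 quasi-likelihood model with group as its term fitted to all 15 libraries (edgeR 4.0.16, R 4.3.3), with adjustment over all 17650 genes. The scripts were tested on simulated data. Libraries of a group differed beyond counting noise, by a chi-square of at least 8.68 per degree of freedom. The ligands, lists and alternatives were chosen with earlier results of these data known. Named were the ligands, the receptors, up to 3 called genes of each list with the smallest p for 100 ng/mL against unstimulated, and the 3 genes most like each ligand whose log2 CPM averaged at least 1. Thy1, Emcn and Plvap were named for their high levels. Alternatives used DESeq2 1.42.0, limma 3.58.1, other scalings, filters, designs and each library left out. Surrogate variables (sva 3.50.0) were added after seeing the data. The value of 1 marker gene is not reported here.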

Additional observations from a re-analysis of the deposited data

How the results depend on the processing

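At 100 ng/mL against unstimulated, Pgf stayed higher and Vegfa and Vegfc lower, all called, in every alternative that gave them a value. Over the alternatives other than leaving out a library, the log2 change ranged from 2.56 to 2.71 for Pgf, from -1.48 to -0.96 for Vegfa and from -1.06 to -0.49 for Vegfc. The smallest changes of Vegfa and Vegfc came from limma on log2(RPKM + 1), a scale that understates changes of low genes. With libraries left out singly, the ranges were 2.61 to 2.80 for Pgf, -1.67 to -1.20 for Vegfa, -1.12 to -0.90 for Vegfc and -0.09 to 0.07 for Vegfb. For 100 against 10 ng/mL they were -1.46 to -0.97 for Vegfa and -0.11 to 0.05 for Vegfb. For 10 ng/mL against unstimulated they were -0.43 to -0.01 for Vegfa, -0.04 to 0.08 for Vegfb, -0.02 to 0.28 for Vegfc and -0.14 to 0.05 for Pgf. There Vegfb turned to -0.01 with library size alone and with limma on log2 RPKM with either pseudocount (1 or 0.1), and to -0.04 with surrogate variables, and was not called in any. A filter of 10 CPM in 5 libraries left 4976 genes called for 100 ng/mL against unstimulated, with fewer genes tested, and no value for Vegfc, and surrogate variables gave 10235, against 7571. For 10 ng/mL against unstimulated, DESeq2 called 8 genes, surrogate variables 28, and leaving out a library 0 to 1 (the 1 without 100 ng/mL library B). Letters did not pair the libraries: deviations of libraries with the same letter correlated at -0.41 to 0.22, above 0.1 in 2 of 15 pairs, and in 0 of the 15 was the library with the same letter the best match. The best matches under other letters each fell on a different library for 10 ng/mL against unstimulated (0.59 to 0.86) and for 100 against 10 ng/mL (0.24 to 0.51), and reached 0.26 to 0.61 for 100 ng/mL against unstimulated. Whether these libraries share a source was not tested, and no fit used such pairs. With the replicate block the log2 change of Pgf was 2.67, of Vegfa -1.48 and of Vegfc -1.02 at 100 ng/mL against unstimulated. In that fit 7069 genes were called, and no call of Pgf, Vegfa, Vegfb or Vegfc changed. Since the block follows letters, which did not pair the libraries, it cannot show what a shared source would change. Vegfd was not followed in the alternatives. Depth limits Vegfc and Vegfd most.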

Other observations

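The gene closest in profile to Pgf also lies near it. Eif2b2 lies 41691 bases from Pgf on the opposite strand (chr12:85219481-85226628, GRCm38), and its log2 fold change was 1.55 ± 0.09 at 100 ng/mL against unstimulated (SE, adjusted p = 1.73e-08). A window of 200 kb on either side of each ligand gene was chosen after the values were seen, and only protein-coding genes were counted. In it Pgf had 12 neighbours, of which 7 were higher, 1 was lower and 4 were not called. Among all genes 21.4% were higher. Beside Eif2b2 the larger rise was that of Rps6kl1, 15371 bases away, from 1.88 ± 0.386 to 4.48 ± 1.01 CPM (1.25 ± 0.19, adjusted p = 7.53e-05), while the other 5 rose by 0.14 to 0.66. Tmed10 was the neighbour that fell, by 0.34 on the log2 scale (adjusted p = 1.69e-05).

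Vegfa had 6 neighbours in this window, of which 1 was higher and 5 were not called, where 21.4% of all genes were higher. Nothing is read from that count. Vegfb had 19, of which 1 was higher, 7 were lower, 8 were not called and 3 were not tested, where 21.5% of all genes were lower. Dnajc4, which lies 260 bases from Vegfb, was among those not called (-0.17 ± 0.10, adjusted p = 0.186). Vegfc had no protein-coding neighbour in the table within the window. These counts are descriptions, and neighbours of a gene were not compared with neighbours of other genes.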
